A study of Mus musculus with 4 samples.

Results

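Layer 5 pyramidal tract neurons of the mouse prefrontal cortex were followed over 4 postnatal ages in single-cell RNA counts. The cells were chosen by gene thresholds. A cell entered with 1000 or more unique molecular identifiers (UMIs, 1 per captured transcript), 1000 or more genes and a mitochondrial share of its UMIs of 15% or less. Excitatory cells were those with at least 1 UMI of *Neurod2* and *Neurod6* summed and less than 1 UMI of *Gad1* and *Gad2* summed per 10000. Of these, pyramidal tract cells had at least 1 UMI each of *Fezf2* and *Bcl11b*, and at least 3 UMIs per 10000 of *Fezf2*, *Bcl11b*, *Pou3f1* and *Crym* summed. They also had less than 1 per 10000 of the layer 6 genes *Foxp2*, *Syt6* and *Hs3st4* summed, less than 1 per 10000 of *Tshz2*, and no *Ctgf*. The rule found 3152 cells among 59918 that passed the quality limits, with 830 from P1, 1046 from P4, 695 from P10 and 581 from adult mice.

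Pyramidal tract neurons are the layer 5 projection neurons whose axons leave the cortex for the midbrain, the pons, the medulla and the spinal cord, while intratelencephalic neurons project within the cortex and striatum and corticothalamic neurons of layer 6 project to the thalamus. *Fezf2* is the transcription factor that selects the subcerebral fate, and *Bcl11b* (CTIP2) is required for the outgrowth and bundling of subcerebral axons. *Pou3f1* (SCIP) is a POU-domain factor of layer 5, and *Crym* encodes a thyroid hormone binding protein. In adult cortex these neurons are known for thick-tufted apical dendrites and large-caliber axons rich in neurofilament. In the prefrontal cortex their targets include the thalamus, the superior colliculus and the pons.

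The groups were wild-type c57bl/6 mice at P1, P4, P10 and adulthood, which the study's design gives as P84, with no treatment or transgene. The study's methods state that all mice were female and that 2 mice were used at each age. Each age was 1 library of dissociated prefrontal cortex made on the BD Rhapsody platform, with no map from cells to mice. The mice of an age could therefore not be told apart, and no age had a replicate. Differences between ages are therefore given as values, with intervals that cover counting error only, and no test between ages was possible.

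The files held 11673, 19646, 16114 and 15961 barcodes at P1, P4, P10 and in the adult, with between 200198548 and 340724049 UMIs per library. The P1 library stood apart from the others in several ways. Its header names pipeline version 1.11, the enhanced bead type, a library called P0 and intronic reads that were not excluded, whereas the other headers name version 1.8 and give no intron setting. Y-linked genes summed to 125 CPM (UMIs of a gene per 1000000 UMIs counted in a population) in the P1 pyramidal tract cells and to between 0.0738 and 0.0834 CPM at the other ages, which goes against the statement that all mice were female. Differences between P1 and later ages cannot be told apart from these differences between the libraries, so values from P4 on are given beside them. Cell index numbers were shared by up to 368 cells of 2 libraries, and 2 were pyramidal tract cells in both of a pair, P4 and P10. At least 1000 genes were required, and the median pyramidal tract cell held between 5790 and 6817 genes. Its median depth over the 4 ages was 36309.5, 25248, 36747 and 24452 UMIs, against 27100, 13326.5, 21650 and 17425.5 in the other excitatory cells. The doublet caller Scrublet marked 46, 115, 44 and 42 of the pyramidal tract cells, which were kept. These were 5.54, 10.99, 6.33 and 7.23% of them, beside 5.11, 9.41, 6.91 and 7.82% of all cells that passed the quality limits.

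The regions upstream of 2 genes that stood above other excitatory cells at each age are shown. Each line gives the 250 bases before the start of the RefSeq entry, 5′ to 3′ on the gene's own strand, on GRCm38.p6. Capitals mark an E-box (CANNTG, bound by Neurod-type factors), an octamer (ATGCAAAT, bound by POU factors such as the protein of *Pou3f1*) or a GC box (GGGCGG), each searched on both strands. *Tcerg1l* and *Egln3* are shown because, of the 8 genes with an entry, theirs were the 2 windows that lay outside the annotated span of their own gene in both RefSeq and GENCODE, and *Egln3* held the octamer. The other 6 windows, those of *Fezf2* and *Bcl11b* among them, overlapped their gene and are not shown. *Tcerg1l* lay at chr7:138397731-138397980 and *Egln3* at chr12:54203875-54204124, both on the minus strand.
Tcerg1l: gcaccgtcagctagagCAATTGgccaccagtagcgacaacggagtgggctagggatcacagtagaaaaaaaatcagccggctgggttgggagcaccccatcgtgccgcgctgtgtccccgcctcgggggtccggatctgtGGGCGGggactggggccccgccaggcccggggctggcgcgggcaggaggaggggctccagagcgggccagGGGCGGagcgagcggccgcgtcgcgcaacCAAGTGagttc
Egln3: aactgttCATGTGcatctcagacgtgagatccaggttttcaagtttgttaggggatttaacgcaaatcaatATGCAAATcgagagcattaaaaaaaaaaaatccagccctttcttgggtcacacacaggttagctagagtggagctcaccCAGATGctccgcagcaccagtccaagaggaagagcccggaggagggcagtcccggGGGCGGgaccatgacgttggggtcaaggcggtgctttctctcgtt
The window of *Tcerg1l* was 69.6% G and C and that of *Egln3* 50.8%, against a median of 52.4% over all promoters. Of 32851 promoters of this length, 66.2% held an E-box, 32.7% a GC box and 1.601% the octamer. Matches are a description of letters, and 8 of the 15 genes looked for had an entry in the promoter table, *Crym* and *Pou3f1* not among them.

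The levels of the 4 markers that the rule used are given first, as a description. *Fezf2* stood at 452, 404, 462 and 506 CPM at P1, P4, P10 and in the adult. *Bcl11b* stood at 639, 458, 292 and 324 CPM, and *Pou3f1* at 371, 298, 231 and 219 CPM, both highest at P1. *Crym* was lowest at P1 and highest at P10, at 229.8, 413, 558 and 294 CPM. At equal depth, with every cell thinned to 2000 UMIs, *Crym* was seen in 21.4, 35.9, 49.4 and 38.6% of the cells, compared with 0, 0, 5.42 and 4.47% of cells gated as microglia, which should lack it. Without thinning the shares of pyramidal tract cells with *Crym* were 53.5, 69.8, 89.5 and 91.9%. The rule required *Fezf2* and *Bcl11b* in each cell, so their presence at each age says nothing on the label. *Pou3f1* and *Crym* counted toward the summed limit, so cells were let in partly for them. The *Crym* shares against microglia-gated cells therefore say nothing on the label either.

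The sum of the 4 markers had a median of 14.3, 13.6, 13.7 and 12.7 UMIs per 10000 at the 4 ages, and 85, 102, 93 and 66 cells lay just inside the threshold, between 3 and 4. Between 2 and 3, just outside, lay 91, 97, 118 and 128 cells that met the other conditions. Cells with a sum under 6 made up 24.2%, 22.6%, 26.8% and 22.5% of the population, and they carried less of the genes that marked the rest. In the P1 cells with a sum of 3 to 6, *Stxbp6* stood at 9.01 CPM, near the 9.40 CPM of other excitatory cells, whereas the sums of 6 to 12 and of 12 or more gave 44.7 and 89.0 CPM. In the adult the same 3 ranges gave 149, 299 and 461 CPM of *Stxbp6*, with 104 CPM in other excitatory cells. *Cux2*, a gene of superficial layers, fell over the ranges from 51.8 to 8.38 CPM at P1 and from 27.97 to 2.22 CPM in the adult. The cells with low sums thus lay nearer to other excitatory cells in these genes, and the ratios given below for the whole population are averages over cells that differ in this way. The ranges and the genes shown were chosen after their values were seen.

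**Figure D1:**
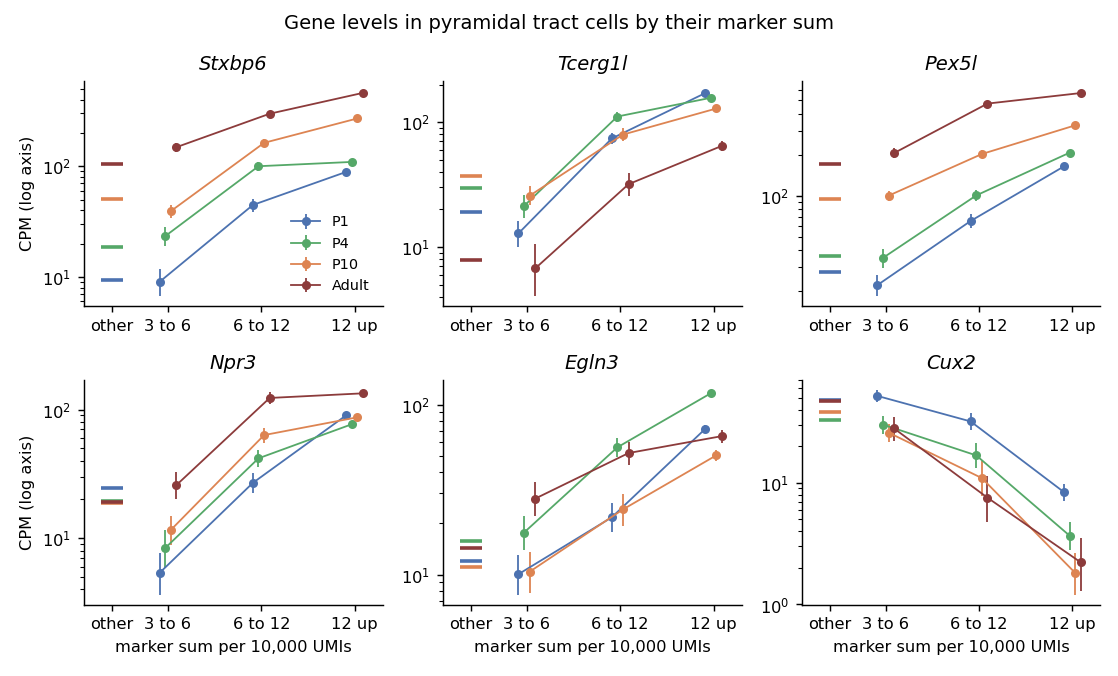
Levels of 6 genes (CPM, log axis) in pyramidal tract cells grouped by the sum of the 4 rule markers per 10000 UMIs, with 1 line per age, and horizontal dashes for the other excitatory cells of the same library. Bars are 95% counting intervals. *Stxbp6*, *Tcerg1l*, *Pex5l*, *Npr3* and *Egln3* rose with the marker sum at every age, and *Cux2* was lowest in the cells with sums of 12 or more.

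Pyramidal tract cells made up 9.13% of the P1 excitatory cells (95% interval 8.54 to 9.74). The P4, P10 and adult shares were 7.51% (7.07 to 7.96), 7.53% (6.996 to 8.08) and 8.06% (7.45 to 8.72). Over all cells that passed the quality limits the shares were 7.19%, 5.50%, 4.55% and 4.12%. The share of excitatory cells was highest at P1, where its interval overlapped that of the adult but not those of P4 and P10. This order did not hold without cells of 20 or more UMIs per 10000 of astrocyte, oligodendrocyte and microglia markers. That limit kept 823, 1022, 672 and 532 pyramidal tract cells and 7861, 11669, 6504 and 4204 other excitatory cells. The share was then highest in the adult. A share set by UMI thresholds moves with depth: when cells were thinned to 5000 UMIs before the rule was applied, and shallower cells were left out, it was 6.11%, 5.22%, 3.99% and 5.15%, of 8669, 12516, 7749 and 5324 excitatory cells. Of the excitatory cells 3681 at P1 and 2596 in the adult had UMIs of both *Fezf2* and *Bcl11b*. The limit on layer 6 genes then took the candidates from 3377 to 876 at P1 and from 2199 to 694 in the adult, so most excitatory cells with both factors were set aside for their layer 6 genes.

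To find what else set these cells apart, they were compared within each library with the other excitatory cells. A gene counted as higher or lower where its CPM differed at least 2-fold and it reached 50 CPM in either population. For levels of at least 50 CPM the median half-width of the counting interval was between 3.54% and 5.13% of the value. At P1, 37 genes were higher and 35 lower, which is 0.787% and 0.745% of the 4701 genes tested. At P4 the counts were 39 (0.882%) and 47 (1.06%), and at P10 they were 31 (0.718%) and 72 (1.67%). In the adult 72 (1.64%) and 121 (2.76%) genes passed. The adult library had the most genes past 2-fold in either direction under this rule. With a stricter rule that asked for at least 2 UMIs each of *Fezf2* and *Bcl11b* and a marker sum of at least 6 per 10000, 168, 144 and 204 genes passed at P1, P4 and P10 in place of 72, 86 and 103, and at P1 57 of them were higher and 111 lower. When single cells were weighted equally, 35 genes were higher and 169 lower at P10 and 70 and 206 in the adult.

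A small set of genes was 2-fold higher at all 4 ages, namely *Cacna2d3*, *Doc2b*, *Fam19a1*, *Npr3*, *Pex5l*, *Stxbp6* and *Zfp703*, 0.119% of the 5874 genes tested at any age. Only genes tested at every age could count, and 4320 were tested at P10, so this share is a low estimate. *Stxbp6*, which encodes amisyn, a SNARE-binding protein that restrains exocytosis, stood at 66.2, 92.3, 206 and 359 CPM against 9.40, 18.7, 50.1 and 104 CPM in other excitatory cells. Both populations rose with age, and the log2 ratio narrowed from 2.82 (2.73 to 2.90) at P1 to 1.79 (1.74 to 1.84) in the adult. At equal depth *Stxbp6* was seen in 8.07, 12.8, 24.9 and 39.5% of pyramidal tract cells, in 1.42, 2.91, 7.003 and 13.99% of other excitatory cells and in 0, 0, 2.48 and 5% of microglia-gated cells. Without thinning it was seen in 33.7, 41.01, 65.9 and 79.3% of pyramidal tract cells.

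*Pex5l* encodes TRIP8b, an auxiliary subunit that sets the trafficking of ion channels, and stood at 120.2, 157, 261 and 470.3 CPM against 27.3, 36.2, 93.95 and 170.4 CPM. *Npr3*, the clearance receptor for natriuretic peptides, stood at 63.4, 58.4, 67.6 and 109 CPM, and its log2 ratio was 1.37 (1.29 to 1.45) at P1 and 2.51 (2.42 to 2.61) in the adult. Other excitatory cells held 24.5, 19.4, 18.9 and 19.03 CPM of *Npr3*, so their level moved little from P4 on while that of the pyramidal tract cells was highest in the adult.

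*Doc2b*, a calcium sensor of spontaneous transmitter release, was at 75.4, 159, 151 and 64.02 CPM with log2 ratios of 1.99, 1.40, 1.35 and 2.19. Its level was highest at P4 and P10, but its ratio was highest in the adult, where other excitatory cells held 14.1 CPM. *Fam19a1*, a secreted chemokine-like protein of neurons, had ratios of 1.59, 1.39, 1.08 and 1.66, and *Zfp703*, a zinc-finger transcriptional repressor, had ratios of 1.48, 2.15, 1.76 and 1.24. *Cacna2d3*, a calcium channel auxiliary subunit, had 1.37, 1.98, 1.83 and 1.01 and was therefore near the threshold in the adult.

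Other genes kept a ratio above 2-fold at each age without reaching 50 CPM in each library. *Tcerg1l*, a relative of a transcription elongation regulator, stood at 124, 124, 99.5 and 45.1 CPM, with log2 ratios of 2.71, 2.08, 1.42 and 2.53. *Wnt5a*, a secreted Wnt ligand with roles in corticospinal axon repulsion, stood at 84.8, 44.4, 17.5 and 26.1 CPM, with ratios of 2.66, 2.42, 1.67 and 2.47. *Wnt5a* was highest in level at P1, *Tcerg1l* was level between P1 and P4, and the ratios of both were lowest at P10. *Egln3*, an oxygen-sensing prolyl hydroxylase, had ratios of 2.10, 2.48, 1.77 and 1.92 and a level that peaked at P4 at 88.01 (95% interval 84.3 to 91.8) CPM. *Oma1*, a protease of the inner mitochondrial membrane, had ratios of 1.64, 2.13, 2.23 and 1.98 while its level went from 94.5 CPM at P1 to 29.6 CPM in the adult. *Ntng1*, the membrane-anchored netrin-G1, rose from 20.4 to 82.1 CPM with ratios of 1.43, 2.29, 1.47 and 1.27.

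**Figure D2:**
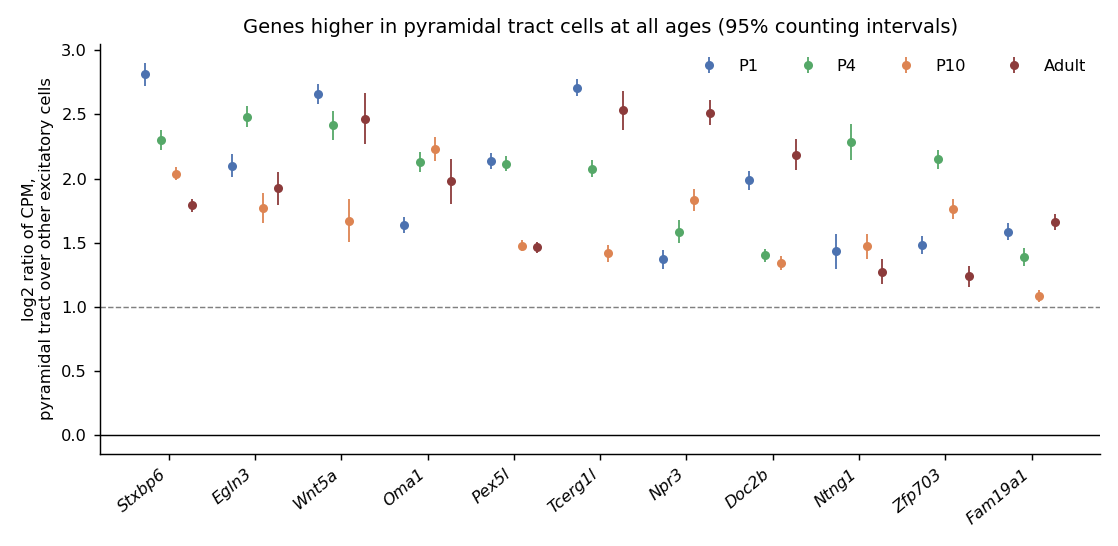
Log2 ratio of CPM in pyramidal tract cells over the other excitatory cells of the same library for 11 genes outside the rule, chosen for the highest minimum ratio over the 4 ages. Points are the 4 libraries, bars are 95% counting intervals and the dashed line is 2-fold. The ratio of *Stxbp6* was at its lowest in the adult, at 1.79, and that of *Npr3* at its highest, at 2.51.

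The same 11 genes were set against 3 populations gated in the same way. Corticothalamic-gated cells had at least 3 per 10000 of *Foxp2*, *Syt6* and *Hs3st4* summed, less than 1 per 10000 of *Tshz2* and no *Ctgf* (2159, 2592, 1753 and 677 cells). Cux2-gated cells had at least 2 UMIs of *Cux2* and no *Fezf2* or *Bcl11b* (904, 832, 816 and 616 cells). They also had less than 1 per 10000 of *Foxp2*, *Syt6* and *Hs3st4* summed. Near-projecting-gated cells had at least 3 per 10000 of *Tshz2* (280, 952, 520 and 653 cells). Over corticothalamic-gated cells, 8, 10, 11 and 11 of the 11 genes were at least 2-fold higher at P1, P4, P10 and in the adult. The median log2 ratio of the genes was 1.30, 2.69, 2.75 and 3.59, so that the largest step was from P1 to P4, where the library processing also differed. Over Cux2-gated cells it was 3.82, 3.12, 2.08 and 1.98, with 11, 11, 9 and 10 genes past 2-fold. Over near-projecting-gated cells the median lay between 2.19 and 2.63 at the 4 ages. From P4 to the adult the median thus went up over corticothalamic-gated and down over Cux2-gated cells. The genes were chosen for high ratios over other excitatory cells, which hold these populations, so the ratios are a description.

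Single genes showed these courses clearly. *Npr3* had ratios over corticothalamic-gated cells of -0.13, 0.24, 1.19 and 2.001, so these cells carried it at pyramidal tract levels at P1 and P4 and not in the adult. Over Cux2-gated cells its ratios were 5.08, 4.71, 3.28 and 4.49. *Stxbp6* had ratios over Cux2-gated cells of 4.61, 1.81, 1.50 and 0.96, in which the adult Cux2-gated cells came within 2-fold of the pyramidal tract cells. Over corticothalamic-gated cells its ratios were 3.18, 3.46, 4.32 and 3.97. *Egln3* was more than 2-fold higher than each of the 3 populations at each age, with ratios of 3.32, 3.51, 3.46 and 4.38 over corticothalamic-gated, 4.42, 3.83, 4.61 and 4.54 over Cux2-gated and 3.24, 2.59, 3.91 and 3.54 over near-projecting-gated cells.

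A list of 28 deep-layer projection genes outside the rule gave a wider view. It was chosen with earlier results of these data known and holds *Npr3*, *Tcerg1l* and *Ntng1*, described above for their high ratios. Its counts are therefore a description and not support for the label. Members of the list past 2-fold higher than in other excitatory cells numbered 6 of 15 tested in the P1 library, 5 of 15 in P4, 8 of 19 in P10 and 9 of 17 in the adult library, with 1, 0, 0 and 1 lower, beside 0.787%, 0.882%, 0.718% and 1.64% of all genes higher. The list's median log2 ratio was 0.69, 0.75, 0.85 and 1.19, beside medians within 0.03 of 0 over all genes tested. *Crim1*, a membrane protein known from corticospinal neurons, was at 174, 209.8, 189 and 369 CPM with ratios of 0.82, 1.23, 1.22 and 1.27. *Ldb2*, a LIM-domain cofactor, had ratios of 0.69, 0.70, 0.85 and 0.88, below 2-fold throughout. *Cadps2*, a priming factor of dense-core vesicles, had ratios of 1.59, 1.79, 0.91 and 1.29. *Pcp4*, a calmodulin regulator often used as a layer 5 label, did not pass 2-fold over other excitatory cells, at 26.4, 27.8, 143 and 135 CPM with ratios of 0.60, -0.06, -0.35 and -0.82. Near-projecting-gated cells held more of it than pyramidal tract cells, with ratios of -1.11, -1.53, -1.24 and -1.48. *Chrna6* had 0 UMIs at P1, P4 and P10, a count that allows up to 3, and 0.0738 CPM in the adult, and *Slco2a1* was at most 1.69 CPM, so neither labelled these cells.

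Of the callosal and superficial genes tested, 1 of 9, 4 of 9, 4 of 9 and 3 of 7 were past 2-fold lower at the 4 ages and 0 higher, beside between 0.745% and 2.76% of all genes lower. The list's median log2 ratio was -0.78, -0.97, -0.98 and -0.86, beside medians within 0.03 of 0. *Lmo4*, a LIM-only factor of callosal identity, remained abundant at 1072, 1035, 1066 and 1144 CPM, with ratios of -0.45, -0.76, -0.73 and -0.47.

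At all 4 ages 4 genes were more than 2-fold lower, *Qk*, *Slc1a2*, *Sparc* and *Tle4*, 0.0681% of the genes tested at any age. *Tle4*, a corepressor of corticothalamic neurons, stood at 47.2, 28.03, 27.3 and 33.5 CPM against 283, 188, 187 and 126 CPM. Its ratios were -4.14, -4.65, -4.43 and -3.54 against corticothalamic-gated and 1.50, 1.64, 0.89 and 0.40 against Cux2-gated cells. *Nxph3*, a neurexin ligand, was similar, with ratios of -3.54, -4.46, -4.59 and -3.52 over other excitatory cells but 1.14, -0.72, -0.03 and 0.97 over Cux2-gated cells. The rule and the Cux2 gate both removed cells with layer 6 genes, and the deficits of *Tle4* and *Nxph3* were seen against layer 6 and near-projecting cells. Without the cells of 2 or more glial UMIs per 10000, which left 48 pyramidal tract and 181 other excitatory cells in the adult, the adult ratio turned to 0.32 for *Tle4* and 0.088 for *Nxph3*.

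*Slc1a2*, the glutamate transporter GLT-1 of astrocytes, stood at 52.2, 84.4, 282 and 329 CPM against 112, 206, 971 and 1245 CPM. *Sparc*, a secreted matrix protein of glia and vessels, was at 4.33, 22.2, 29.4 and 31.4 CPM against 59.9, 80.5, 130.3 and 80.7 CPM, and *Qk*, an RNA-binding protein abundant in glia, had ratios of -1.54, -1.49, -1.66 and -1.25. The list of 7 astrocyte markers holds *Slc1a2* itself. Its other 6 genes summed to 74.2, 92.1, 96.9 and 113 CPM in pyramidal tract cells and to 185, 290, 374 and 347 CPM in other excitatory cells. With *Slc1a2*, 1 of 2, 2 of 2, 4 of 4 and 4 of 4 tested markers were lower at the 4 ages, beside 0.745%, 1.06%, 1.67% and 2.76% of all genes. Oligodendrocyte markers summed to 59.6, 77.8, 109 and 445 CPM against 126, 194, 297 and 1138 CPM, and those of microglia to between 10.9 and 111 CPM against 30.2 to 297 CPM. Of the defining astrocyte genes, *Gfap* was under 1 CPM and *Aqp4* at most 11.0 CPM in pyramidal tract cells. Cells with 20 or more glial UMIs per 10000 made up 8.43% of the adult pyramidal tract cells and 36.5% of the adult other excitatory cells. Without these cells in every library, 6 genes were past 2-fold at every age, *Doc2b*, *Npr3*, *Pex5l*, *Stxbp6* and *Zfp703* higher and *Tle4* lower. The glial UMIs were those of the astrocyte, oligodendrocyte and microglia lists, *Slc1a2* among them. This filter lowers the difference in *Slc1a2* by its construction, so the absence of *Slc1a2* from this set is not a result. The part of glial RNA in the other low genes was not tested further.

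Without P1, the 3 later libraries shared 10 genes higher and 17 lower, adding *Crim1*, *Kirrel3* and *Tmem163* to the higher genes. The genes added to the lower side included *Tbr1*, a layer 6 transcription factor with ratios of -0.74, -1.14, -1.33 and -1.04, and the astrocyte genes *Apoe* and *Slc1a3*.

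Some genes stood out from other excitatory cells at the later ages. The other excitatory cells changed in make-up, with 2159 corticothalamic-gated cells among 8263 at P1 and 677 among 6624 in the adult. Cells with 20 or more glial UMIs per 10000 made up 4.87% of them at P1 and 36.5% in the adult. The part of these changes in the ratios below was not tested. The age ratio from P1 to adult differed at least 2-fold between pyramidal tract and other excitatory cells for 103 genes in favor of the former (1.82% of 5654) and for 137 in favor of the latter (2.42%). With P4 in place of P1 they numbered 64 and 98. *Adamts2*, a procollagen-processing protease, stood at 23.2, 14.1, 17.6 and 63.6 CPM against 21.5, 10.4, 5.01 and 5.45 CPM. Its log2 ratio over other excitatory cells went from 0.11 (-0.003 to 0.23) at P1 to 3.55 (3.39 to 3.70) in the adult. The P1 interval included 0, and the adult populations differed 11.7-fold.

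*Parm1*, a mucin-like membrane protein, was at 4.57, 13.5, 65.7 and 292 CPM, with ratios of -0.40, 0.06, 2.003 and 2.26. At equal depth it was seen in 0.964, 2.10, 9.35 and 35.01% of the cells, against 1.09, 2.10, 2.22 and 8.54% of other excitatory cells and 0, 0, 0.903 and 2.45% of microglia-gated cells. *Bcl6*, a transcriptional repressor that promotes neuronal differentiation, was at 8.73, 5.19, 28.1 and 73.7 CPM with ratios of -0.65, 0.83, 2.12 and 2.89. *Igfbp4*, a secreted IGF-binding protein, was at 27.4, 54.9, 125 and 318 CPM with ratios of -0.76, 0.09, 0.42 and 2.29. *Parm1* first passed 2-fold at P10, and *Bcl6*, which was under 50 CPM before, and *Igfbp4* in the adult.

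*Reln*, the secreted glycoprotein that guides layering, kept a level of 43.6, 57.9, 63.6 and 48.8 CPM in pyramidal tract cells while other excitatory cells went from 89.3 CPM at P1 to 10.5 CPM in the adult. Its ratio therefore changed sign, at -1.04, -1.12, 0.97 and 2.21, with little change in the pyramidal tract cells themselves. Among channels, *Kcnn2* (the SK2 potassium channel) had ratios of -0.19, 0.31, 0.65 and 1.51 and *Cacna1h* (the Cav3.2 calcium channel) had 0.23, 0.07, 0.74 and 2.07. Both passed 2-fold in the adult and not before. Of 21 firing and calcium channel genes tested in the adult, 5 were higher and 4 lower, beside 1.64% and 2.76% of all genes. The median log2 ratio of these 21 was -0.27, beside 0.03 over all genes tested.

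The excess of other genes narrowed with age or ended. *Lamp5*, a dendritic membrane protein, was 2-fold higher at each age but with ratios of 3.03, 2.74, 2.02 and 1.04, and its levels, 6.43, 32.6, 165 and 312 CPM, were too low at P1 and P4 for it to count there. Over Cux2-gated cells its ratios went from 5.81 at P1 to -0.16 in the adult, where the Cux2-gated cells held 348 CPM after 0.115 CPM at P1. *Gda*, the guanine deaminase cypin, rose in both populations, to 987 CPM in pyramidal tract cells, and its ratios were 2.26, 1.65, 0.66 and 0.51. *Calb1*, a calcium-binding protein of superficial layers, had ratios of 2.10, 1.15, -0.78 and -1.93, and *Slc30a3*, the vesicular zinc transporter ZnT3, had 1.69, 0.01, -0.62 and -1.27. At P1 and P4 *Calb1* was under 50 CPM in both populations, so it did not count as higher there.

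*Rprm*, a cell-cycle gene of deep layers, was at 236, 285, 98.004 and 21.9 CPM, with ratios of 0.24, -0.21, -1.62 and -2.84 over other excitatory and -0.32, -0.55, -3.17 and -5.06 over corticothalamic-gated cells. *Sema5a*, a transmembrane semaphorin, had ratios of -0.90, -1.02, -2.19 and -3.97. Pyramidal tract cells thus carried *Rprm* at the level of their neighbors at P1 and P4 and far below it in the adult, and were below them in *Sema5a* by more at P10 and in the adult than before. Without cells of 2 or more glial UMIs per 10000 the P10 ratio of *Sema5a* turned to 0.12.

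The second question was how the pyramidal tract cells themselves changed with age. From P1 to P4, 186 genes rose (3.83% of 4856 tested) and 346 fell (7.13%). From P4 to P10, 280 rose (6.16%) and 221 fell (4.87%), and from P10 to the adult 365 rose (7.94%) and 288 fell (6.26%). Over the whole span 1037 rose (19.4%) and 1226 fell (23%) from P1, and 838 rose (16.9%) and 746 fell (15%) from P4. At 4-fold the majority turned at 2 of these, with 36 up and 59 down from P10 to the adult and 419 up and 384 down from P1. It also turned from P4 to the adult with a minimum of 20 CPM, at 1194 up and 1201 down, and with none, at 3151 and 3294. Of 5552 genes that reached 50 CPM at any age, 2038 peaked at P1 and 1743 in the adult, with 939 and 832 at P4 and P10.

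The falls from P1 to P4 went with the length of the gene. Of 291 genes annotated over at least 300 kb, 32.6% fell 2-fold and 1.03% rose, whereas of 1604 genes under 20 kb 2.37% fell and 5.99% rose. From P4 to P10, 4.58% of 240 such long genes fell and 4.88% of 1641 short ones. Length also went with direction between later libraries, where from P10 to the adult 10.6% of long genes rose and 3.15% fell, against 5.03% and 8.34% of short genes. The large share of falls among long genes stood at the step where the library processing also differed, and its source was not tested. *Dcc*, the netrin receptor, is a gene of this kind and fell from 194.5 CPM at P1 to 3.55 CPM at P4. *Fgf14*, an intracellular modulator of sodium channels, fell from 133 to 24.8 CPM at the same step.

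**Figure D3:**
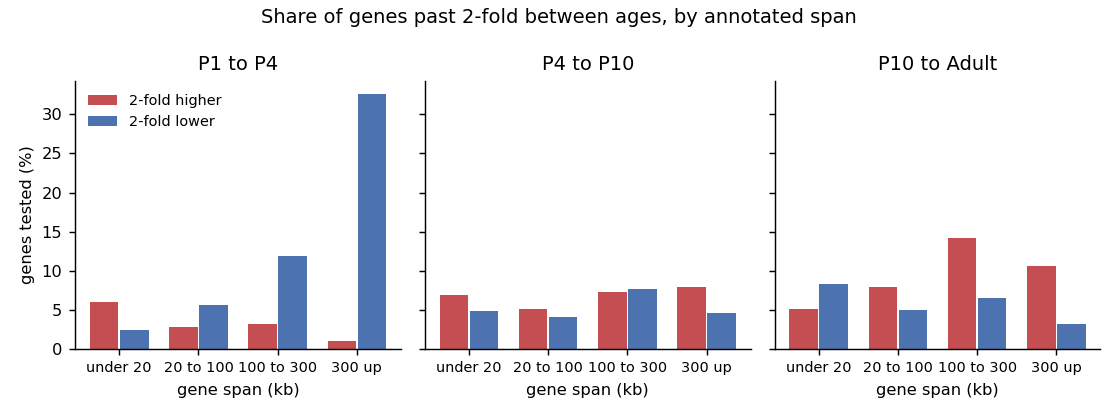
Percent of genes tested that were at least 2-fold higher or lower between neighboring ages in pyramidal tract cells, by the annotated span of the gene in kb. At P1 to P4, 32.6% of genes of 300 kb and more were lower, and at P4 to P10 the share was 4.58%.

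Genes of immature neurons and growth fell together, and most of the fall came after P10. Of 24 tested, 2 fell and 1 rose from P1 to P4, 7 fell from P4 to P10, and 19 of 22 fell from P10 to the adult, beside 7.13%, 4.87% and 6.26% of all genes. The first of these counts was near that of all genes, and the last went with a median log2 ratio of -1.91 beside 0.05. From P4 to the adult 23 of 24 fell, beside 15%. The list summed to 54146.5, 58492.2, 41505.7 and 11304.6 CPM in pyramidal tract cells. Other excitatory cells held 47637, 56307.8, 38375.1 and 10052.9 CPM, so the fall was common to both populations. *Cd24a*, a surface glycoprotein of young neurons, stood at 1449, 1387, 288 and 1.77 CPM and at equal depth was seen in 90.96, 86.9, 31.2 and 0.347% of the cells, against 6.25, 11.5, 11.96 and 0.319% of microglia-gated cells, so the adult share was at background. *Sox11*, a transcription factor of early neurons, fell earlier, at 1573, 451, 44.4 and 11.5 CPM, and *Dcx*, the microtubule protein doublecortin, was at 2203, 1502, 259 and 33.7 CPM. *Tubb2b*, a tubulin of growing axons whose reads may be shared with the near-identical *Tubb2a*, was at 5341, 4944, 1967 and 50.4 CPM, and *Marcksl1*, an actin regulator, was at 1861, 1804, 1541 and 59.2 CPM. *Sox11* thus lost most of its level before P10, whereas *Marcksl1* held until P10.

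*Gap43*, the growth-cone protein, followed another course, at 3189, 7428, 6895 and 2265 CPM, and was highest at P4 and P10. *Stmn2*, a microtubule destabilizer of growing axons, was at 2416, 4015, 3967 and 819 CPM, with the same order. *Draxin*, a guidance protein that repels commissural axons, was at 125, 81.1, 2.79 and 0 CPM, and *Igfbpl1*, an IGF-binding protein of newborn neurons, was likewise at 0 UMIs in the adult. Against a floor of 3 UMIs in the adult cells, *Draxin* was at least 566-fold lower in the adult than at P1 and *Igfbpl1* at least 705-fold lower.

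From P4 on, fewer of the axon guidance and adhesion genes fell than of the immature list. From P1 to P4 more did, as 10 of 36 fell and 1 rose, beside 7.13% and 3.83% of all genes. At this step the library processing also differed. From P4 to P10 3 of 30 fell and 0 rose, and from P10 to the adult 3 of 26 fell and 1 rose. All genes had 4.87% and 6.26% down at these steps. The difference between the lists was not tested. From P4 to the adult 12 of 30 fell and 0 rose, beside 15% and 16.9% of all genes, with a median log2 ratio of -0.48 beside -0.03 over all genes, and from P1 to the adult 19 of 36 fell and 1 rose, beside 23% and 19.4%. *Robo1*, a Slit receptor, was at 549.7, 244, 145 and 119.6 CPM, *Ephb1* at 258, 176, 93.4 and 62.5 CPM and *Ncam1* at 1625, 1411, 906 and 422 CPM. *Ryk*, the Wnt5a receptor of corticospinal axons, was at 81.05, 55.1, 16.97 and 18.2 CPM. *Ryk* and *Wnt5a* were thus both highest at P1 in these cells. *Ryk* passed 2-fold from P4 to P10, a step at which *Wnt5a* was under 50 CPM on both sides. *Epha4*, the ephrin receptor that keeps corticospinal axons on their side of the cord, did not fall, at 111, 194, 239 and 219.8 CPM, nor did *Cdh13*, a cadherin of deep layers, at 519.6, 605, 752 and 511 CPM. *L1cam*, a cell adhesion molecule of growing axons, was highest at P4 and P10, at 525, 809.8, 782 and 297 CPM. *Cntn1*, an adhesion molecule of the node region, rose from P1 to P4 and had 259.8, 774, 1162 and 806 CPM. As a sum the list went from 9125.29 CPM at P4 to 6009.58 CPM in the adult, and from 8864.64 to 5401.73 CPM in other excitatory cells.

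Of 24 neurofilament and transport genes tested from P4 to the adult, 4 rose and 4 fell, shares near the 16.9% and 15% of all genes, with a median of -0.09 beside -0.03. *Nefl*, the light neurofilament chain, stood at 192, 325, 1129.6 and 718 CPM, and its ratios over other excitatory cells were 1.53, 1.05, 1.34 and 0.50. *Nefh*, the heavy chain of large axons, was at 3.08, 9.56, 55.9 and 50.95 CPM with ratios of 0.57, 1.27, 2.03 and 1.19. Both were highest at P10 and more than 2-fold above other excitatory cells there, and in the adult *Nefl* was not. *Nefm*, the medium chain, was at 163, 142, 266 and 199.5 CPM. *Mapt*, which encodes tau, fell from 3569.98 CPM at P4 to 694 in the adult, and *Map1a*, a microtubule protein of mature neurons, rose from 183 to 514 CPM. *Kif21b*, a kinesin, fell from P10 to the adult, at 285, 266, 310.1 and 31.5 CPM.

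Of the genes of the axon initial segment and node, 13 of 24 rose and 3 fell from P1 to the adult, beside 19.4% and 23% of all genes. From P4 9 of 23 rose and 1 fell, beside 16.9% and 15%, with a median of 0.88 beside -0.03. Summed, the list went from 5771.08 CPM at P4 to 7830.99 CPM in the adult, and from 5197.22 to 7549.21 CPM in other excitatory cells. *Cntnap1*, the paranodal protein Caspr, was at 0.406, 1.43, 44.4 and 169 CPM. *Scn2b*, a sodium channel beta subunit, was at 9.85, 18.3, 79.3 and 312 CPM and rose at each step from P4 on. *Scn8a*, the Nav1.6 channel of mature initial segments, was at 98.2, 128, 226 and 387 CPM. *Scn3a*, a channel of early development, was at 262, 166, 115 and 94.4 CPM. *Kcna2*, a potassium channel next to the node, was at 31.9, 42.5, 86.7 and 360.4 CPM, with most of its rise after P10. At P1 and P4 *Cntnap1*, *Scn2b* and *Kcna2* were under 50 CPM, so the adult comparisons tested them only through their adult level. This fixed their direction in advance. The scaffold gene *Ank3* was at 579, 359, 264 and 344 CPM and did not pass 2-fold from P1 to the adult. Oligodendrocyte markers in pyramidal tract cells summed to 109 CPM at P10 and 445 CPM in the adult, with *Mag* at 1.08 and 22.2 CPM. The part of this RNA in rises of myelin-side genes was not tested.

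Of 25 firing and calcium channel genes 18 were tested from P4 to the adult, of which 8 rose and 0 fell, beside 16.9% and 15% of all genes, with a median of 0.98 beside -0.03. From P4 to P10 14 of the 25 were tested. Some of the 18 were therefore tested only through their adult level, which fixed their direction in advance. *Kcnma1*, the BK channel, was at 209, 195.3, 269 and 500.3 CPM. The list's sum went from 1704.01 CPM at P4 to 3811.04 CPM in the adult, and from 1651.68 to 3909.62 CPM in other excitatory cells.

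Glutamate and GABA receptor genes had 13 of 27 up and 1 down from P4 to the adult, beside 16.9% and 15% of all genes, with a median of 0.98 beside -0.03. *Grin2a*, the NMDA receptor subunit of mature synapses, was at 26.1, 28.1, 95.2 and 367 CPM, whereas *Grin2b*, the subunit of early synapses, was at 849.7, 589.9, 518 and 819 CPM and did not pass 2-fold. *Gria3*, an AMPA receptor subunit, was at 110.4, 104, 283 and 777 CPM. *Slc12a5*, the chloride exporter KCC2, rose from 26.7 (95% interval 24.9 to 28.7) CPM at P1 to 459 (95% interval 447 to 470.4) CPM in the adult, with 93.7 CPM at P4 and 227 at P10. *Slc12a2*, the chloride importer NKCC1, was at 61.5, 48.5, 31.4 and 44.2 CPM without passing 2-fold from P1 to the adult. *Grin2a* passed 2-fold at the steps after P4, and *Slc12a5* at each step. *Grin2a* was under 50 CPM at P4 and *Slc12a5* at P1. From these ages they were tested only through their later level, which fixed their direction in advance. The sum of this list went from 5175.89 CPM at P4 to 11367.2 CPM in the adult, and from 5002.49 to 10616.9 CPM in other excitatory cells.

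In the list of transmitter release and the postsynapse the rises came earlier, with 7 of 25 up from P1 to P4, 10 of 26 up from P4 to P10 and 2 of 27 up from P10 to the adult, beside 3.83%, 6.16% and 7.94% of all genes. The list's medians at these steps were 0.75, 0.78 and 0.16, beside -0.03, -0.07 and 0.05 over all genes. It summed to 6754.57, 12886.8, 28121 and 30213.5 CPM in pyramidal tract cells. Other excitatory cells held 6052.42, 9965.23, 23149.2 and 33079.8 CPM, so they rose as well. *Slc17a7*, the vesicular glutamate transporter VGLUT1, was at 55.1, 251, 1146 and 1778 CPM, and at equal depth was seen in 7.47, 33.9, 85.3 and 94.3% of the cells. In microglia-gated cells, which should lack it, it was seen in 0, 3.85, 17.2 and 27.9%. The intervals did not overlap from P4 on, while at P1 the 16 microglia-gated cells allowed a share of up to 20.6% (exact 95% binomial interval), so the P1 share cannot be told from background. *Slc17a6* (VGLUT2) fell late, at 64.97, 66.3, 69.5 and 22.1 CPM. *Camk2a*, the CaMKII alpha subunit, was at 56.9, 155, 622 and 1172 CPM, *Syn2* at 47.6, 201, 681 and 876 CPM and *Nrgn*, a calmodulin-binding protein of spines, at 711, 3688, 9254 and 6569 CPM. *Nptx1*, a neuronal pentraxin at excitatory synapses, rose late, at 6.53, 5.52, 20.8 and 145 CPM, and stayed below other excitatory cells with ratios of -2.05, -2.83, -2.46 and -1.77. *Syn2* from P1 to P4 and *Nptx1* from P10 to the adult were tested only through their later level, which fixed their direction in advance.

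**Figure D4:**
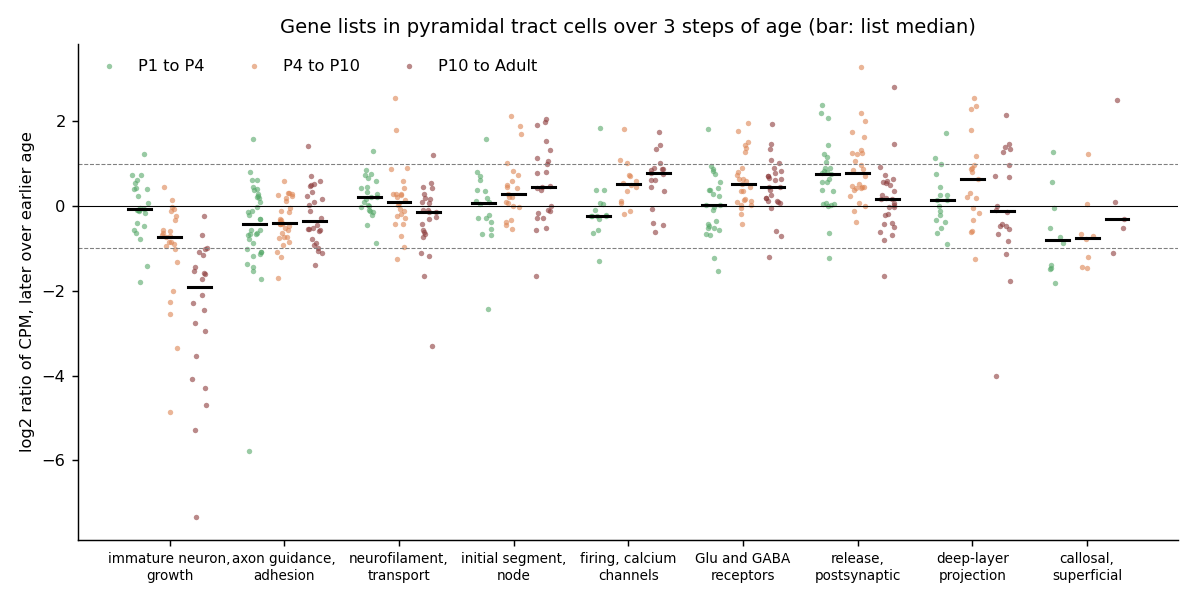
Log2 ratio of CPM, later over earlier age, for the genes of 9 lists in pyramidal tract cells at the steps P1 to P4, P4 to P10 and P10 to adult. Points are genes tested, black bars are list medians, and dashed lines are 2-fold. The immature list had medians of -0.07, -0.72 and -1.91, and the release and postsynaptic list 0.75, 0.78 and 0.16.

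The same order held in single cells at equal depth. The median pyramidal tract cell held 97, 107, 75 and 20 UMIs of the immature list among 2000. It held 11, 23, 51 and 54 of the release and postsynaptic list and 10, 9, 13 and 20 of the receptor list. In the immature list 100% of the adult cells lay below the P10 median. In the release and postsynaptic list 94.9% of the P4 cells lay above the P1 median and 99.1% of the P10 cells above the P4 median, but 61.2% of the adult cells above the P10 median. The transport list changed least of the 4, with medians of 27, 31, 26 and 21. Of the adult cells, 4 were under 2000 UMIs and were left out.

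**Figure D5:**
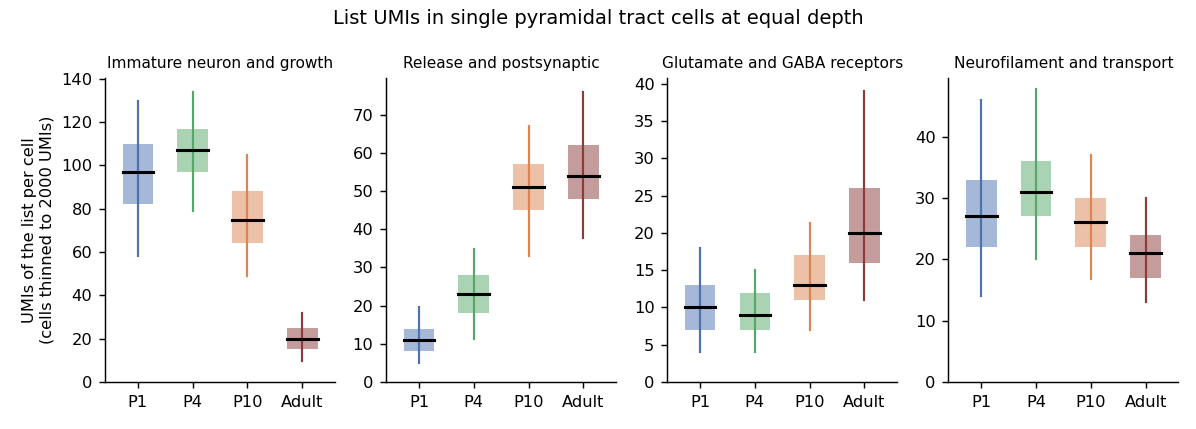
UMIs of 4 gene lists per pyramidal tract cell thinned to 2000 UMIs, by age. Boxes span the quartiles, black bars are medians and lines run from the 5th to the 95th percentile. The immature list went from a median of 97 at P1 to 20 in the adult, and the release and postsynaptic list from 11 to 54.

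Receptors for modulators were sparse. Of 30 genes 5 could be tested from P1 to the adult, and 2 rose beside 19.4% of all genes, *Chrm1* (the M1 muscarinic receptor) at 25.2, 56.7, 151 and 243 CPM and *Sstr2* (a somatostatin receptor) at 15.3, 32.7, 76.95 and 59.96 CPM. Both were under 50 CPM at P1 and were tested only through their adult level, which fixed their direction in advance. From P4 to the adult *Chrm1* passed and *Sstr2* did not. Of the serotonin receptors of prefrontal pyramidal cells, *Htr2a* was at 5.38, 7.60, 19.97 and 28.7 CPM and *Htr1a* at 2.84, 3.15, 9.50 and 21.2 CPM, below the 50 CPM needed for a call. *Htr2c* was below other excitatory cells, with ratios of -0.79, -2.51, -2.84 and -2.64, and its ratios against near-projecting-gated cells were -3.19, -5.61, -6.51 and -6.003. *Drd1* stayed at or under 6.92 CPM at each age, and *Drd2* at or under 3.25 CPM.

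Genes linked to amyotrophic lateral sclerosis and hereditary spastic paraplegia, diseases of corticospinal and motor neurons, had 3 of 17 up and 4 down from P1 to the adult, near the 19.4% and 23% of all genes, with a median of -0.14 beside -0.12. From P4 to the adult 1 of 17 rose and 3 fell, beside 16.9% and 15%. *Sod1* was at 198, 263, 239.6 and 251 CPM and *Spast*, a microtubule-severing protein, at 219, 143, 72.8 and 58.6 CPM. *Sqstm1*, the autophagy receptor p62, was at 177, 288, 368 and 435 CPM. *Spast* fell from P1 and from P4, whereas *Sqstm1* rose from P1 and not from P4. Relative to other excitatory cells *Nefh* was the 1 gene higher, of 15 tested at P10 and of 14 in the adult, beside 0.718% and 1.64% of all genes.

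Of 16 activity and stress genes 6 could be tested from P4 to the adult and 5 rose, beside 16.9% of all genes, with a median of 2.38 beside -0.03. *Egr1* was at 1.90, 26.1, 185 and 301 CPM, *Bdnf* at 6.03, 14.4, 80.6 and 103 CPM and *Nr4a1* at 8.36, 12.8, 40.1 and 103 CPM. All of these were under 50 CPM at P4, so they were tested only through their adult level, which fixed a rise in advance. At equal depth the median cell held 2, 3, 5 and 4 UMIs of the whole list at P1, P4, P10 and in the adult.

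The largest changes over the whole span were in genes of several roles. Among the largest rises from P1 to the adult beside *Cntnap1* and *Egr1* were *Pcsk1*, a prohormone convertase, at 0.135, 0.899, 29.1 and 93.3 CPM, and *Rasgrp1*, a Ras activator, at 4.67, 45.6, 342 and 795 CPM. *Itpka*, a spine kinase, was at 1.73, 18.5, 136 and 249.97 CPM, *Lynx1*, a brake on nicotinic receptors, at 1.63, 10.1, 137 and 139 CPM and *Klf9*, a thyroid hormone responsive factor, at 2.44, 17.1, 168 and 196 CPM. *Lynx1* passed 2-fold already from P4 to P10. *Hlf*, a PAR-domain transcription factor, rose late, at 14.3, 12.7, 55.3 and 436 CPM, as did *Camsap3*, which stabilizes microtubule minus ends, at 47.4, 34.4, 19.97 and 322 CPM.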

How the data were processed

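Single cells from mouse prefrontal cortex were captured on the BD Rhapsody platform, 1 library per age. The authors deposited raw UMI counts per cell and gene, made by the BD Rhapsody WTA Analysis Pipeline, version 1.11 for P1 and 1.8 for P4, P10 and the adult per the file headers (the methods name 1 version for all), on GRCm38 with GENCODE vM19 genes.

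The counts of the 23847 genes listed in all 4 files were used. The 99 mitochondrial and ribosomal protein genes were left out, and the sums over the pyramidal tract cells of a library were scaled to 1000000 (CPM), over every other gene in the library's file. A further 6 sex-linked genes stayed in these totals but were not compared, which left 23742 genes. Levels are compared within a gene, since 3′ counts are not scaled by length. Intervals are exact 95% Poisson, conditional binomial (ratios) or Clopper-Pearson (shares) and cover counting error only, and UMIs of 1 cell are not independent of each other. A gene was tested where it reached 50 CPM on either side, and rose or fell where the ratio was at least 2. A gene under 50 CPM on 1 side was tested only through the other side, which fixed its direction in advance. There was no replicate, so no p-value is given. Ratios with a sum of 0 use a floor of 3 UMIs. For shares and list sums each cell was thinned to 2000 UMIs. Microglia-gated cells numbered 16, 26, 458 and 945, so their shares at P1 and P4 are imprecise.

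The members and the 21 gene lists (377 genes) were chosen with earlier results of these data known. Named genes are list genes, the 12 largest rises and falls from P1 to the adult, the 5 largest of each step, the 12 genes with the highest minimum and the 12 with the lowest maximum ratio over other excitatory cells, the 5 highest ratios at each age, and the 8 highest and 8 lowest differences of age ratios. *Qk*, *Sparc*, *Kirrel3*, *Tmem163* and *Apoe* were named after their values were seen. The calls were tested on simulated data. Alternatives were stricter limits on cells and on the member rule, equal depth, Scrublet calls or the deepest cells left out, other denominators, other minimum levels and folds, and, added after seeing the data, cells with glial UMIs left out and P4 in place of P1. Python 3.11.15, numpy 2.4.6, scipy 1.17.1, pandas 2.3.3, scanpy 1.11.5 (Scrublet, expected rate 0.06) and matplotlib 3.10.9 were used. Gene spans came from the reference annotation given for GRCm38. Some genes that the rule names are not reported here.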

Additional observations from a re-analysis of the deposited data

Results flagged for a closer look

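*Grp*, which encodes gastrin-releasing peptide, moved more than 2-fold in opposite directions in the 2 populations. In pyramidal tract cells it stood at 54.3, 70.6, 80.7 and 113 CPM at P1, P4, P10 and in the adult, a log2 ratio of 1.06 from P1 to the adult. In other excitatory cells it stood at 128, 171, 144 and 56.8 CPM, a log2 ratio of -1.17. From P4 the rise in pyramidal tract cells was under 2-fold, so the opposite calls rest on the P1 library. With 1 library per age the difference was not tested, and age and library cannot be told apart.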

How the results depend on the processing

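No paired analysis was possible because each age was 1 library. For the same reason no replicate could be left out, and the precision of every value is limited to counting error. The share of pyramidal tract cells among excitatory cells at P1, P4, P10 and in the adult was 6.28%, 4.93%, 5.04% and 5.83% under the stricter rule, 6.11%, 5.22%, 3.99% and 5.15% at equal depth, and 7.88%, 5.39%, 5.02% and 6.64% without the deepest cells. P1 was highest in each of these, but the adult was highest without cells of 20 or more glial UMIs per 10000. Genes past 2-fold at the steps P1 to P4, P4 to P10, P10 to adult and P1 to adult numbered 976, 846, 1080 and 3484 with a minimum of 20 CPM, 5382, 4048, 4196 and 9207 with none, and 77, 74, 95 and 803 at 4-fold, in place of 532, 501, 653 and 2263. At 4-fold, rises and falls were 36 and 59 from P10 and 419 and 384 from P1 to the adult, so that the majority turned. For P4 to adult, 838 and 746 became 1194 and 1201 at 20 CPM and 3151 and 3294 with no minimum. Against other excitatory cells at the 4 ages the counts were 172, 194, 234 and 385 at 20 CPM, 4497, 4807, 5255 and 5131 with no minimum, and 14, 12, 23 and 26 at 4-fold, in place of 72, 86, 103 and 193. At P1, 37 genes were higher and 35 lower, but 57 and 115 at 20 CPM, 57 and 111 under the stricter rule, 49 and 65 at equal depth, 37 and 41 without cells marked by Scrublet, 32 and 34 with equal weights for single cells and 33 and 35 with all genes in the denominator. With no minimum the majority turned to higher at the later ages, with 2826 and 1981, 2744 and 2511, and 2846 and 2285. At P4 it also turned at 4-fold (7 and 5), at equal depth (54 and 50), without the deepest cells (32 and 31), and without cells of 20 (39 and 31) or 2 (50 and 35) glial UMIs per 10000 or more. The stricter rule gave 168, 144 and 204 at P1, P4 and P10, equal depth gave 114 at P1, and equal weights for single cells gave 204 at P10. Genes past 2-fold at every age, 11 as reported, with 7 higher and 4 lower, numbered 29 (11 and 18) under the stricter rule, 37 (13 and 24) at 20 CPM, 770 (163 and 607) with no minimum, 19 (6 and 13) with equal weights, 0 at 4-fold and 27 (10 and 17) with P4 in place of P1, so most were lower in these settings except at 4-fold. They numbered 6 without cells of 20 or more glial UMIs per 10000 and 7 without those of 2 or more. Differences of age ratios, 240 as reported, numbered 391 under the stricter rule, 443 at 20 CPM, 162 (64 and 98) with P4 in place of P1 and 7338 with no minimum, where 5436 higher and 1902 lower turned the majority. A lower minimum tests more genes, and for the other settings the cause was not tested.

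Of 5902 alternative values for named genes 3976 stayed within the counting interval, 1917 moved beyond it and 9 changed sign. Without cells of 2 or more glial UMIs per 10000, which kept 48 pyramidal tract and 181 other excitatory cells in the adult, the log2 ratio over other excitatory cells became 0.52 for *Arc*, 0.059 for *Cpne4*, 0.24 for *Kcnk2*, 0.088 for *Nxph3*, 1.33 for *Slc17a6* and 0.32 for *Tle4* in the adult and 0.12 for *Sema5a* at P10. At the limit of 20 it became 0.12 for *Plpp3* at P4, and with equal weights for single cells 0.029 for *Hbb-bs* at P1.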
